A study of Mus musculus with 24 samples.

Results

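The 9 genes described here are oligodendrocyte and myelin genes read in RNA from mouse microglia: Mbp, Mobp, Mog, Mag, Cnp, Cldn11, Mal, Olig1 and Pdgfra, chosen by name out of 55487 genes in the table. The cells were taken with CD11b magnetic beads, a sort for microglia, from frontal cortex and striatum of male mice aged 8 to 10 weeks. The mice were either offspring of mothers with an immune activation in pregnancy (MIA, whose agent the labels do not name) or control offspring, and each had received lipopolysaccharide (LPS, a bacterial cell wall component, at 4500 endotoxin units per gram into the peritoneum) or saline 18 hours earlier. The groups were MIA striatum LPS, MIA striatum saline, control striatum LPS, control striatum saline, MIA cortex LPS, MIA cortex saline, control cortex LPS and control cortex saline, with 3 libraries each. All groups shared perfusion with buffer, removal of the meninges, papain digestion and a debris removal step before the sort, and libraries were made by a modified Smart-Seq2 protocol. One library, MIA striatum LPS replicate 3, is titled as excluded and was set aside, so that group had 2 libraries and the series 23. The labels do not say whether libraries of a group came from separate mice, so p-values measure the spread between these libraries, and they do not give litters, so MIA cannot be told apart from litter. Whether cortex and striatum libraries came from the same mice is not given either, and the main fit took all libraries as separate.

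Oligodendrocytes wrap axons of the brain in myelin, a membrane sheath rich in lipid and in a small set of abundant proteins. Their precursors carry the receptor encoded by Pdgfra, and the myelin genes are switched on as the cells mature. The mRNA of Mbp, and that of Mobp, is carried out into the cell processes and translated beside the myelin, whereas most membrane proteins of myelin are made in the cell body. Microglia do not make myelin but engulf its debris, and a bead sort of brain tissue can also carry over other cells and fragments. Which of these sources gave the RNA measured here was not tested, and in bulk RNA fewer cells of a type and less RNA per cell cannot be told apart.

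Of the structural genes, Mbp (ENSMUSG00000041607.17) encodes myelin basic protein, which compacts the cytoplasmic faces of the sheath. Mobp (ENSMUSG00000032517.16, chr9:120149707-120181484, forward strand) encodes a further basic protein of compact myelin. Mal (ENSMUSG00000027375.14, chr2:127633226-127656695, reverse strand) encodes a proteolipid of membrane sorting that is also made outside oligodendrocytes. Cldn11 (ENSMUSG00000037625.7, chr3:31149920-31164324, forward strand) encodes the claudin of the tight junction strands in myelin. Mog (ENSMUSG00000076439.12, chr17:37010743-37023398, reverse strand) encodes a glycoprotein of the outermost layer, and Mag (ENSMUSG00000036634.15, chr7:30899176-30914873, reverse strand) one of the layer next to the axon. Cnp (ENSMUSG00000006782.16, chr11:100574904-100591729, forward strand) encodes an enzyme of non-compact myelin that appears early in the lineage. Olig1 (ENSMUSG00000046160.6, chr16:91269772-91271933, forward strand) encodes a transcription factor of the lineage, and Pdgfra (ENSMUSG00000029231.15, chr5:75152292-75198215, forward strand) the receptor that marks precursors and also fibroblasts. Coordinates are those of the GENCODE annotation of GRCm38, whose versioned identifiers matched those of the table for all 9 members. The build used for counting is not given in the sources used here. Exons of Cnp share 154 bases with Dnajc7 on the other strand, and the strand setting of the counting is not given either, so a part of the Cnp value could belong to Dnajc7.

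RefSeq promoter windows on GRCm38.p6, from 250 bases before to 50 after a gene start, were on hand for 7 of the 9 members, all but Mbp and Olig1. The windows of Mobp, Mog and Mal are shown, 3 of the members called as higher in striatum on average below. Capitals mark ACAAAG or its reverse complement CTTTGT, a core motif of the SOX factors to which the myelin regulator SOX10 belongs. The windows lie at chr9:120149492-120149791 (forward strand), chr17:37023349-37023648 (reverse strand) and chr2:127656646-127656945 (reverse strand).
Mobp: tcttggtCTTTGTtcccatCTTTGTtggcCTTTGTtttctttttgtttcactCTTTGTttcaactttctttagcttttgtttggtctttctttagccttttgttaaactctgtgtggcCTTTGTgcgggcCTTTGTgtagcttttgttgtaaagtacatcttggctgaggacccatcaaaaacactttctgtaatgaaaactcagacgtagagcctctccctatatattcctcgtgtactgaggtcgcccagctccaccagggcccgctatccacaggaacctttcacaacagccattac
Mog: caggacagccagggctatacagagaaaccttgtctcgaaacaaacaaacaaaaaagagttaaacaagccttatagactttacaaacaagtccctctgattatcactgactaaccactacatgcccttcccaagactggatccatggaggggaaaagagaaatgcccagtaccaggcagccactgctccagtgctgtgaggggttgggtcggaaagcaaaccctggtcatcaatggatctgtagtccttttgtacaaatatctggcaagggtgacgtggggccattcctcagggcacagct
Mal: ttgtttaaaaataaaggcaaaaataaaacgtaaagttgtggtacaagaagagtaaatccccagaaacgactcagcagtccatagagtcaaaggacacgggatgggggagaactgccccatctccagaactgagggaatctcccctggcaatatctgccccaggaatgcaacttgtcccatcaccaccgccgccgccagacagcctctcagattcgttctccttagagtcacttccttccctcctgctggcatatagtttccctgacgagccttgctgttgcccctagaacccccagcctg
The Mobp window held 6 matches, all of them CTTTGT as printed and within a stretch rich in T. Only 0.00304% of the 32851 windows held at least as many, which is the Mobp window alone. The windows of Mog and Mal held 0, as did those of Cldn11 and Pdgfra, while that of Cnp held 1. The 3 alternative windows of Mag held 1, 1 and 0, with the same match counted in overlapping windows. Of all windows 18.7% held at least 1 match. A match is only a run of letters, and the lack of one says nothing about binding.

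The libraries used held 19453300 to 29480500 expected counts and had 17723 to 20324 genes with a count. The sort label was checked against its markers: the 10 microglial markers summed to 28938 to 60159 CPM, the count scaled to library size with TMM factors, and Csf1r and Cx3cr1 averaged 11593 and 6588 CPM. All 9 members passed the filter on low counts, with 17139 of 55487 genes, and each had counts in every library. The lowest count behind any member value was 20, for Pdgfra in control cortex saline replicate 2, and the lowest for Mbp was 1249. A gene is called below where edgeR's quasi-likelihood test gave an adjusted p under 0.05 over all 17139 genes, and log2 fold changes are given with their standard error (SE). Counts at an unadjusted p under 0.05 are given without the share of all genes at that p. They therefore cannot be set against a background.

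Mbp varied 59.8-fold and Mobp 92.5-fold between the lowest and highest of the 23 libraries, whereas Mag varied 2.8-fold and Cnp 3.1-fold. Cldn11 varied 26.0-fold, Mog 16.2-fold, Pdgfra 9.53-fold, Olig1 8.35-fold and Mal 7.15-fold. In the order of the 8 group means, neighbouring groups overlapped in all 7 pairs for each member other than Mobp, for which 6 of 7 pairs overlapped.

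Mbp, on chromosome 18, stood at 451 and 215 CPM in MIA striatum LPS, at 1336, 202 and 508 CPM in MIA striatum saline, at 373, 215 and 215 CPM in control striatum LPS and at 3227, 2342 and 461 CPM in control striatum saline. In cortex it stood at 70.0, 77.7 and 863 CPM in MIA LPS, at 141, 152 and 233 CPM in MIA saline, at 145, 149 and 54.0 CPM in control LPS and at 81.7, 103 and 125 CPM in control saline. Replicates 1 and 2 of control striatum saline were the highest, MIA striatum saline replicate 1 came next, and MIA cortex LPS replicate 3 stood far above the other libraries of its group. The same 4 libraries were the highest for Mobp. Mobp had 1659, 1174 and 191 CPM in control striatum saline, 519, 70.6 and 200 CPM in MIA striatum saline, and 40.3, 41.0 and 374 CPM in MIA cortex LPS.

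**Figure D1:**
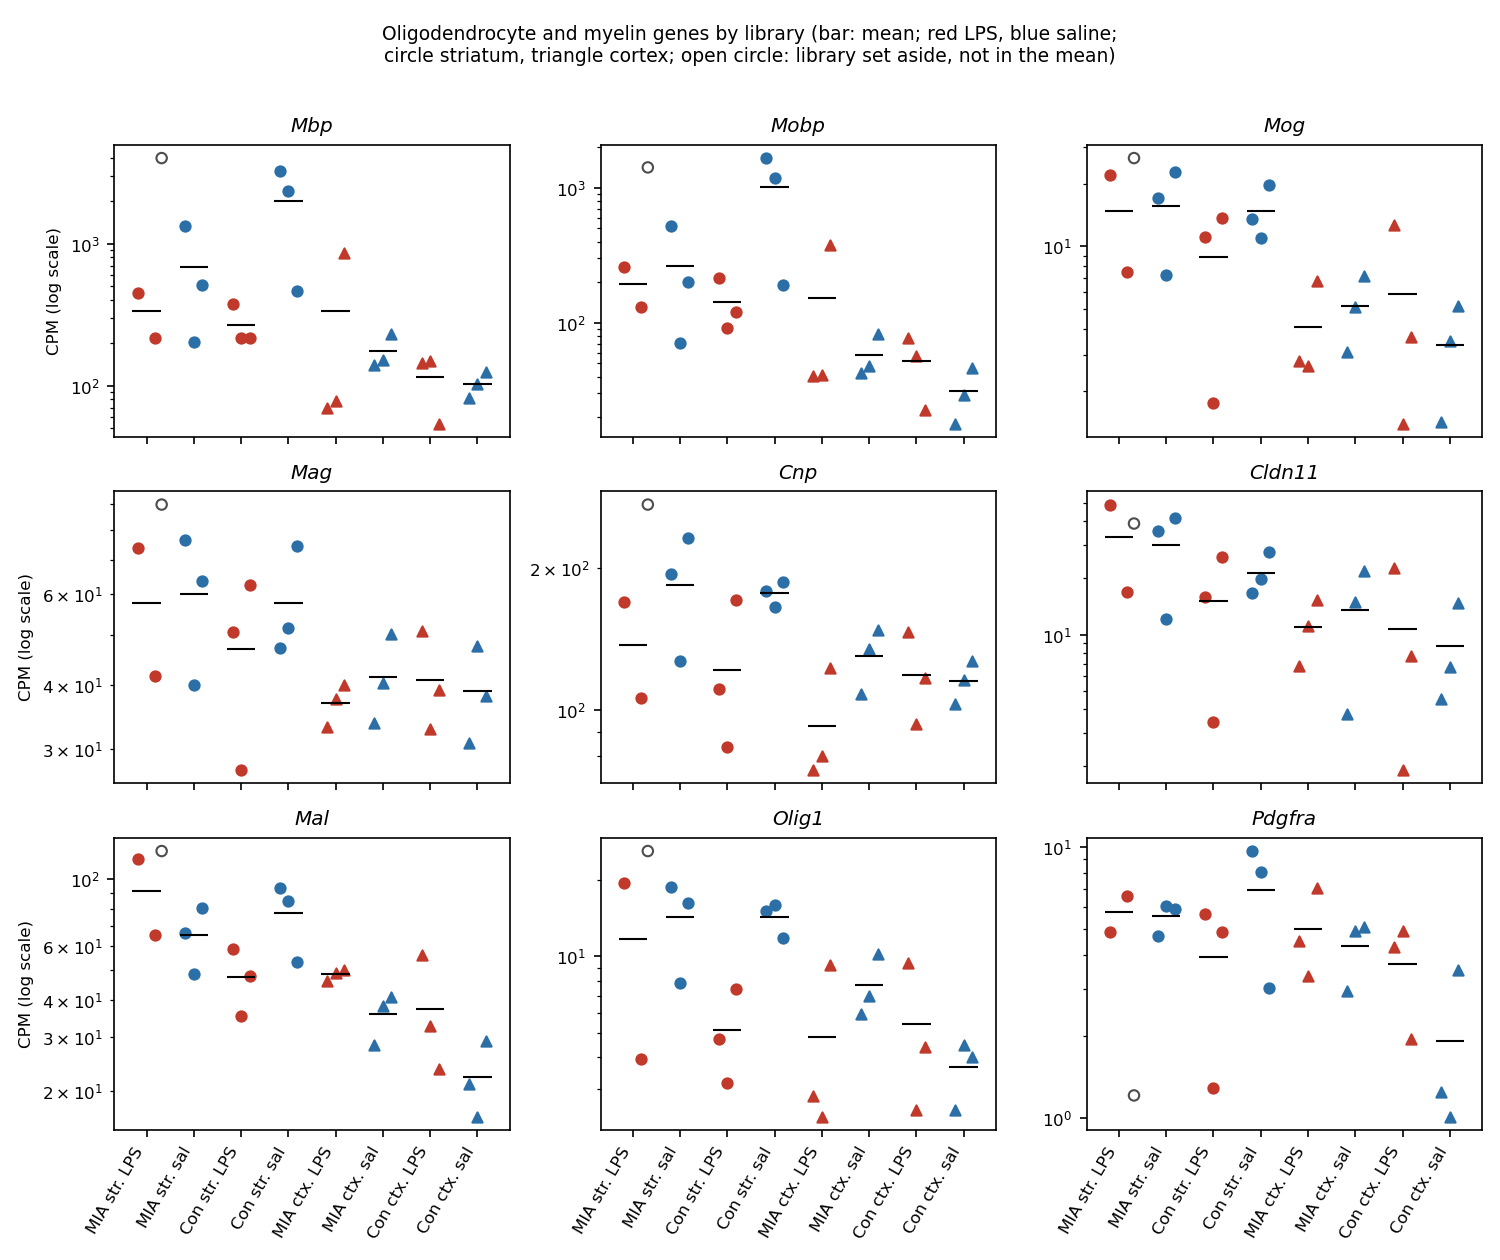
CPM of the 9 genes (log axis) in each library of the 8 groups, with red for LPS, blue for saline, circles for striatum, triangles for cortex, a bar at the group mean and an open circle for the library set aside. Mbp and Mobp reach 3227 and 1659 CPM in control striatum saline, with the other library of that group at 461 and 191 CPM, while Mag has 27.3 to 76.4 CPM over the 23 libraries of the fit and 89.7 CPM in the library set aside.

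Mog, the outer surface glycoprotein, took another course. It had 22.0 and 7.52 CPM in MIA striatum LPS, 17.0, 7.24 and 22.7 CPM in MIA striatum saline, 11.1, 1.77 and 13.6 CPM in control striatum LPS and 13.5, 11.0 and 19.6 CPM in control striatum saline. The control striatum saline library lowest for Mbp was thus the highest of its group for Mog, and it was also the highest for Mag (74.4 CPM, against 47.1 and 51.5 CPM), Cldn11 (27.6 CPM, against 16.7 and 19.8 CPM) and Cnp (187 CPM, against 179 and 165 CPM). Olig1 (15.1, 16.0 and 11.8 CPM), Mal (93.8, 84.7 and 53.4 CPM) and Pdgfra (9.67, 8.09 and 3.02 CPM) had their lowest value of the group in that library, as Mbp and Mobp did.

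Across the 23 libraries Mbp and Mobp ran together, with a Pearson r of 0.98 on log2 CPM (Spearman rho 0.97). The r was 0.96 without the 2 libraries farthest from the median and 0.98 for deviations from the group means. Mog ran with Cldn11 (r = 0.93), Mag (r = 0.91), Cnp (r = 0.87) and Olig1 (r = 0.87), and these were 0.94, 0.86, 0.89 and 0.82 for deviations from the group means. Mbp and the surface or inner layer genes were more loosely related: Mbp with Mag had r = 0.53, and 0.24 for deviations from the group means, and Mbp with Mog 0.65 and 0.34. Olig1 ran with both sets, at r = 0.78 with Mbp and 0.75 with Mobp (0.64 and 0.67 for deviations from the group means). Cnp ran most closely with Olig1 (r = 0.90), the lineage factor, and Pdgfra with Mal (r = 0.78). Mal itself ran most closely with Mobp (r = 0.82). These correlations describe libraries that share groups, depth and cell mixtures.

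Genes among the 3 nearest to each member, out of all genes tested, fell along the same lines. For Mbp and for Mobp these were Plekhb1 (r = 0.98 and 0.97), which encodes a pleckstrin homology domain protein, Bcas1 (0.97 and 0.94), a marker of oligodendrocytes that have begun to myelinate, and Dbndd2 (0.94 and 0.94). Fa2h, which makes the hydroxylated fatty acids of myelin lipids, was among the 3 nearest genes to Mog (0.96) and Cldn11 (0.90), and Lgi3 and Gpr37 were among those of Mag (0.86 each). For Cnp and for Olig1 the nearest gene was the tubulin Tubb4a (0.92 and 0.95). Mal and Pdgfra had looser partners in common, Galnt18 (0.86 and 0.82) and Abat (0.85 and 0.80), of which Abat encodes the enzyme that breaks down the transmitter GABA.

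**Figure D2:**
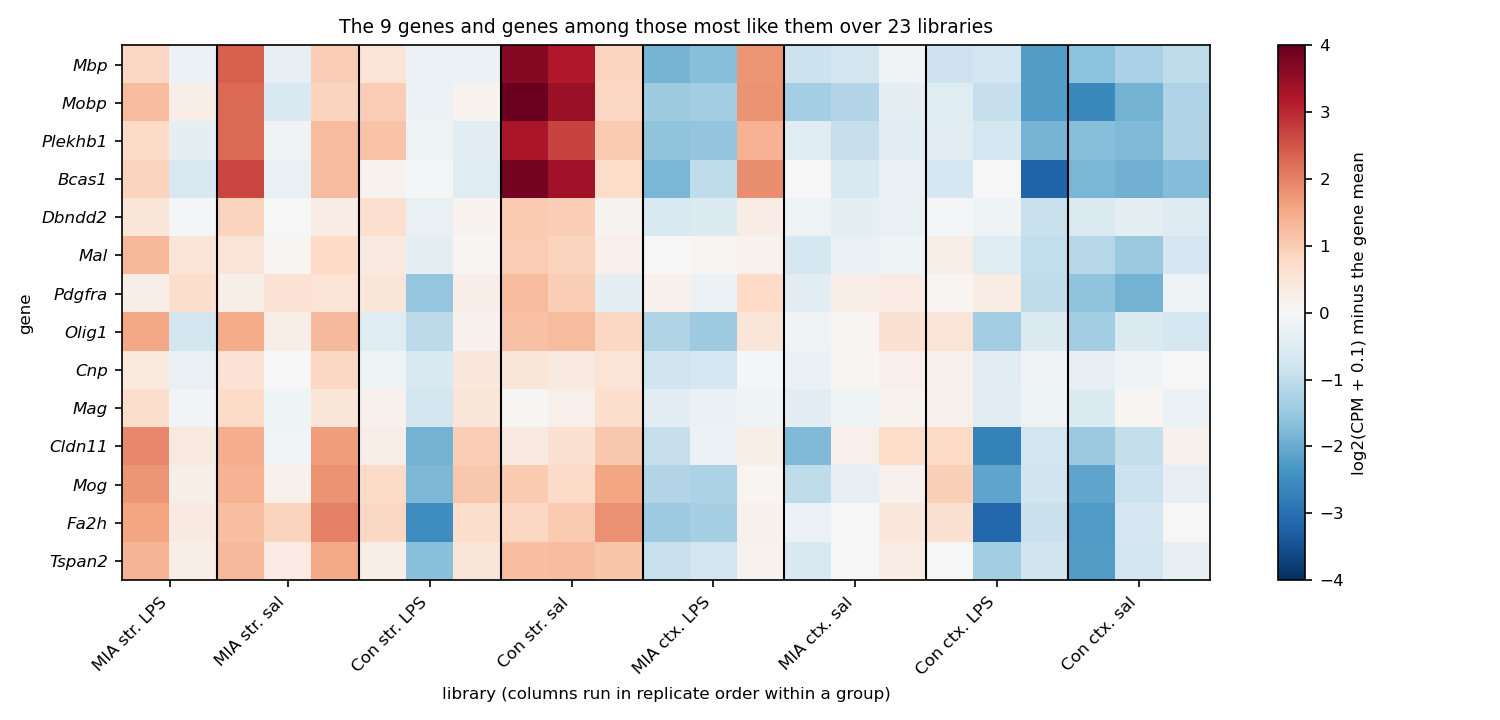
Deviation of log2 CPM (with a small pseudocount) from the gene mean for the 9 members and 5 genes among those most like them, in 23 libraries grouped by black lines, with colours that end at 4 in either direction. Rows were ordered after their values were seen: Mbp, Mobp, Plekhb1 and Bcas1 are high in the first 2 libraries of control striatum saline and in the last of MIA cortex LPS, while Mog, Cldn11 and Fa2h are high in striatum libraries of several groups.

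The ratio of Mbp to Mag within a library set the courses apart, from 1.38 to 68.6 over the 23 libraries. It was 6.11 and 5.17 in MIA striatum LPS, 17.5, 5.07 and 7.98 in MIA striatum saline, 7.36, 7.85 and 3.43 in control striatum LPS, and 68.6, 45.5 and 6.2 in control striatum saline. In MIA cortex LPS it was 2.11, 2.07 and 21.6. Mbp over Mobp stayed between 1.65 and 4.56, and within cortex it was 1.74 to 2.62 in the 6 LPS libraries and 2.73 to 4.56 in the 6 saline libraries, without overlap. In striatum it was 1.65 to 2.35 in the 5 LPS libraries and 1.95 to 2.87 in the 6 saline libraries, which overlapped. This contrast of ratios was noticed in the data and has no test here.

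**Figure D3:**
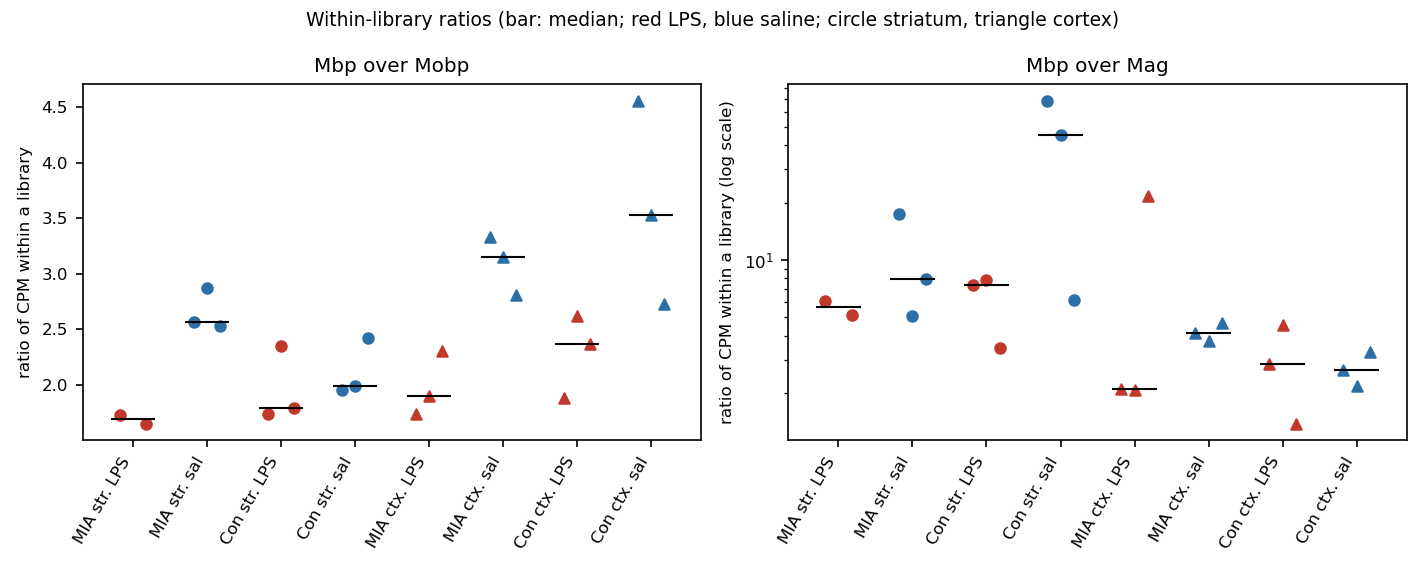
Ratio of CPM within each library for Mbp over Mobp (linear axis) and Mbp over Mag (log axis) in the 8 groups, with a bar at the median, red for LPS, blue for saline, circles for striatum and triangles for cortex. Mbp over Mobp stays between 1.65 and 4.56, whereas Mbp over Mag reaches 68.6 in control striatum saline.

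**Figure D4:**
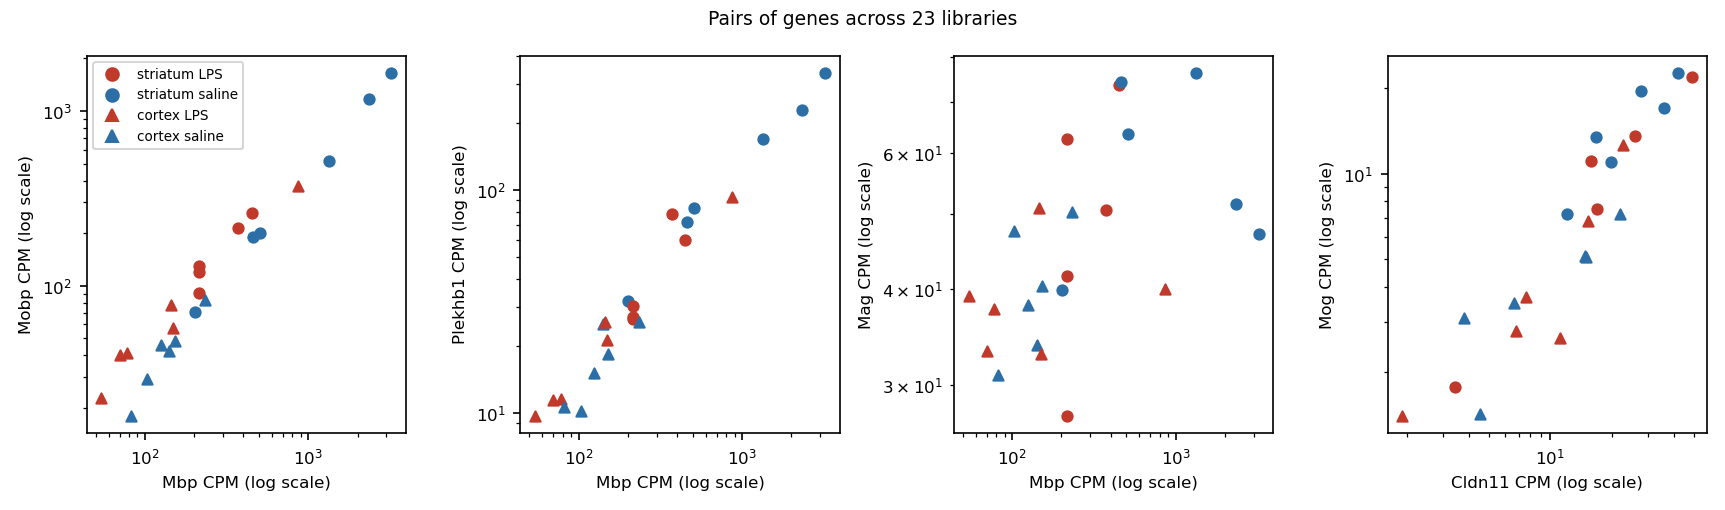
CPM of gene pairs on log axes, 1 point per library, for Mobp, Plekhb1 and Mag against Mbp and for Mog against Cldn11. The Mobp and Plekhb1 points lie along a line with Mbp (r = 0.98 for each) and so do those of Mog with Cldn11 (r = 0.93), while the 2 libraries highest in Mbp have 47.1 and 51.5 CPM of Mag, whose range is 27.3 to 76.4 CPM (r = 0.53).

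The first comparison asked how striatum differed from cortex. Averaged over the 4 prenatal and treatment pairs, all 9 members were higher in striatum and 4 were called: Mobp (log2 fold change 2.25, SE 0.43, adjusted p 0.009), Mbp (1.86, SE 0.42, adjusted p 0.02), Mog (1.54, SE 0.37, adjusted p 0.032) and Mal (0.98, SE 0.16, adjusted p 0.0023). Of all genes tested 2.45% were called and 1.72% were called as higher in striatum, and the median of the members was 1.01, beside -0.02 for all genes. Mal, the sorting proteolipid, had 117 and 65.3 CPM in MIA striatum LPS, 66.6, 48.5 and 80.6 CPM in MIA striatum saline, 58.9, 35.4 and 48.0 CPM in control striatum LPS and 93.8, 84.7 and 53.4 CPM in control striatum saline. In cortex Mal had 46.2, 48.9 and 50.3 CPM in MIA LPS, 28.3, 38.1 and 40.9 CPM in MIA saline, 56.0, 32.6 and 23.5 CPM in control LPS and 21.0, 16.4 and 29.1 CPM in control saline. Striatum and cortex did not overlap for Mal within control saline, MIA saline or MIA LPS, but did within control LPS. Its averaged difference was called under each of 29 alternatives, at 0.84 to 1.08. The other 5 members were not called but all had an unadjusted p under 0.05: Cldn11 differed by 1.13 (SE 0.39), Olig1 by 1.01 (SE 0.30), Pdgfra by 0.63 (SE 0.28), Mag by 0.49 (SE 0.15) and Cnp by 0.43 (SE 0.14). Olig1 was called by DESeq2 (1.02, adjusted p 0.022) and with the excluded library added back (1.14, adjusted p 0.038), and with no filter on low counts edgeR called Olig1 (adjusted p 0.012), Cldn11 (0.022), Mag (0.031) and Cnp (0.033). Mag was called without control striatum LPS replicate 2 (0.55, adjusted p 0.034). Olig1 was called without MIA cortex LPS replicate 3 (1.24, adjusted p 0.015), MIA striatum LPS replicate 2 (1.20, adjusted p 0.031) or control cortex LPS replicate 1 (1.18, adjusted p 0.038), and Cnp without MIA cortex LPS replicate 3 (0.50, adjusted p 0.042) or control striatum LPS replicate 2 (0.48, adjusted p 0.049). Without MIA striatum LPS replicate 1 the averaged Mbp difference was 1.66 and was not called (adjusted p 0.11). Mog was not called under 13 of 29 alternatives, 12 of them with 1 library left out: control cortex LPS replicate 3, control cortex saline replicates 1 and 2, control striatum LPS replicates 1 and 3, control striatum saline replicate 3, MIA cortex LPS replicates 1 and 2, MIA cortex saline replicates 1 and 2, MIA striatum LPS replicate 1 and MIA striatum saline replicate 3 (adjusted p 0.055 to 0.18). Without control striatum saline replicates 1 and 2 together Mobp was 1.66, Mbp 1.33 and Mog 1.66. That setting was chosen after seeing the data and leaves 1 library in the group.

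In control saline mice 3 members were called, all higher in striatum: Mobp averaged 1008 ± 748 CPM in striatum and 31.0 ± 14.1 CPM in cortex (SD, n = 3 each; log2 fold change 5.02, SE 0.96, adjusted p 0.027 by edgeR), Mbp averaged 2010 ± 1412 and 103 ± 21.8 CPM (4.28, SE 0.90, adjusted p 0.038) and Mal averaged 77.3 ± 21.2 and 22.2 ± 6.44 CPM (1.80, SE 0.32, adjusted p 0.019). Of all genes tested 0.502% were called and 0.455% were called as higher in striatum. Striatum libraries lay wholly above cortex libraries for 7 members, all but Mag and Pdgfra, and for 12.4% of all genes. Mbp and Mobp lost the call without any of the 3 cortex libraries or without striatum replicate 1 or 2 (adjusted p 0.12 to 0.23 for Mbp and 0.087 to 0.2 for Mobp), and Mal without cortex replicate 1 or 2 or striatum replicate 1 or 2 (0.096 to 0.15). Mbp also lost the call without MIA cortex saline replicate 2 (adjusted p 0.057) or MIA striatum LPS replicate 1, which leaves 1 library in that group. Without striatum replicates 1 and 2 together, the difference was 2.19 for Mbp, 2.65 for Mobp and 1.30 for Mal. That setting was chosen after seeing the data and leaves 1 striatum library.

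No member was called between striatum and cortex in MIA LPS, MIA saline or control LPS, by edgeR or by DESeq2, where 0.0117%, 0.0817% and 0.0175% of all genes were called. At an unadjusted p under 0.05 there were 2 in MIA LPS (Mog and Mal), 4 in MIA saline (Mbp, Mobp, Mog and Mal) and 0 in control LPS. Striatum libraries lay wholly above cortex libraries for 4 members in MIA LPS (Mog, Mag, Cldn11 and Mal), against 10.9% of all genes, for 2 in MIA saline (Mog and Mal), against 5.03%, and for 2 in control LPS (Mbp and Mobp), against 2.77%. Mog, for instance, differed by 1.84 (SE 0.79) in MIA LPS, 1.60 (SE 0.73) in MIA saline, 0.59 (SE 0.72) in control LPS and 2.13 (SE 0.75) in control saline. Mbp differed by -0.02 (SE 0.88) in MIA LPS, where 1 cortex library had 863 CPM, and by 1.96 (SE 0.82) in MIA saline.

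**Figure D5:**
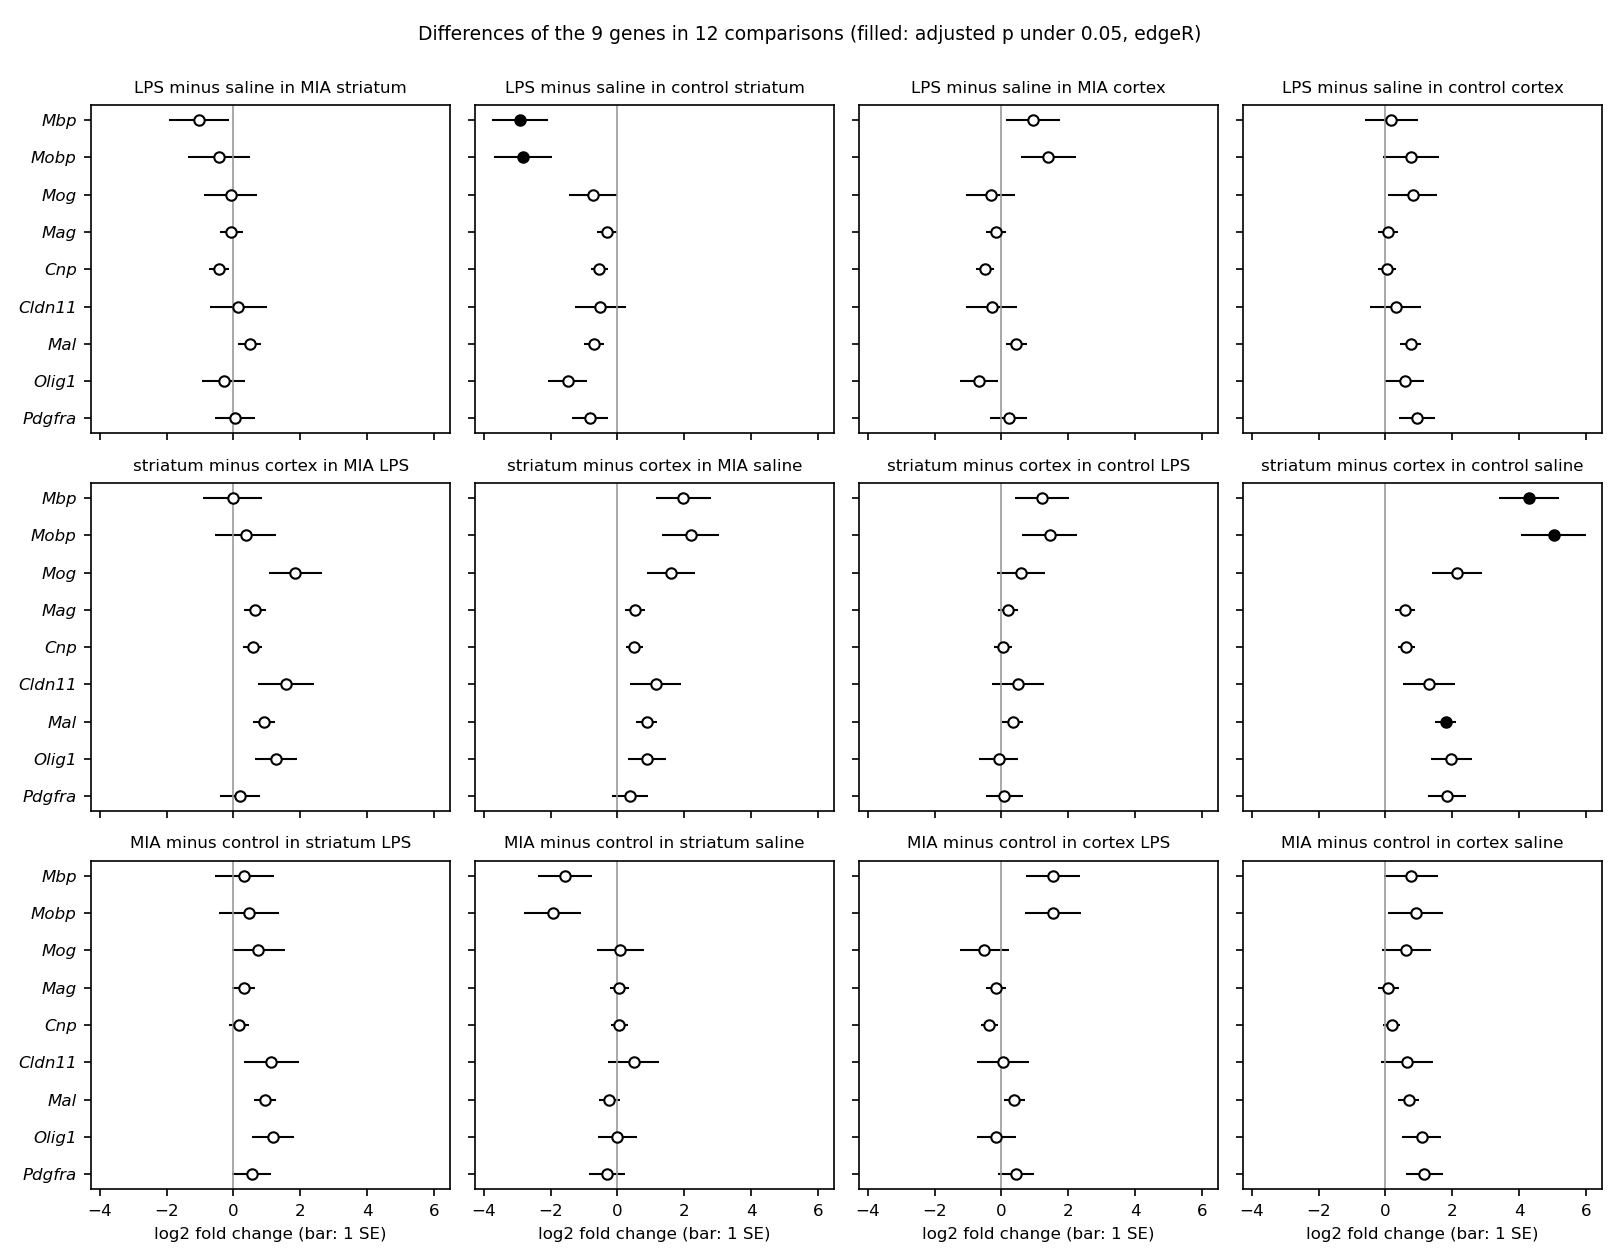
Log2 fold change of the 9 genes with 1 SE in the LPS, regional and MIA comparisons of single groups, filled where the adjusted p was under 0.05. Filled points are Mbp and Mobp for LPS in control striatum (-2.91 and -2.83), and Mbp, Mobp and Mal for striatum minus cortex in control saline (4.28, 5.02 and 1.80).

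The second comparison asked what LPS did. In control striatum 2 members fell, the compact myelin genes Mbp and Mobp, where 20.9% of all genes were called and 8.15% as lower. Mbp averaged 268 ± 91.2 CPM after LPS and 2010 ± 1412 CPM after saline (SD, n = 3 each), which gives -2.91 on the log2 scale (SE 0.85, adjusted p 0.018 by edgeR), and its groups did not overlap. LPS libraries lay wholly below saline libraries for 2 members, Mbp and Olig1, and for 17.4% of all genes. Mobp had 214, 91.2 and 120 CPM after LPS, against 1659, 1174 and 191 CPM after saline, which gives -2.83 on the log2 scale (SE 0.87, adjusted p 0.024), and its groups overlapped. Without saline replicates 1 and 2, the highest saline libraries for both genes, the difference was -0.82 for Mbp and -0.46 for Mobp. These 2 libraries were chosen after their values were seen, so a smaller difference was built in, and 1 saline library was left. Leaving out single libraries ended calls, for both genes without saline replicate 1 (adjusted p 0.076 for Mbp and 0.1 for Mobp), LPS replicate 2 (0.064 and 0.087) or LPS replicate 3 (0.066 and 0.079), and for Mobp without saline replicate 2 (0.057).

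The other 7 members were not called in control striatum, and their log2 fold changes were all below 0. DESeq2 called Olig1 as well (-1.52, adjusted p 0.039), as did edgeR with no filter on low counts (-1.51, adjusted p 0.036). Olig1 had 4.72, 3.16 and 7.42 CPM after LPS and 15.1, 16.0 and 11.8 CPM after saline, groups that did not overlap (-1.48, SE 0.58, adjusted p 0.08). Mal differed by -0.70 (SE 0.31, adjusted p 0.11) and Cnp by -0.54 (SE 0.26, adjusted p 0.17). Mog differed by -0.74 (SE 0.72), Cldn11 by -0.51 (SE 0.76), Pdgfra by -0.81 (SE 0.54) and Mag by -0.30 (SE 0.30). Cnp was called at -0.86 without LPS replicate 3 (adjusted p 0.033), and Olig1 at -1.48 without MIA cortex LPS replicate 3 (adjusted p 0.045). The median of the 9 was -0.74, beside -0.02 for all genes.

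No member was called for LPS in MIA striatum, MIA cortex or control cortex, by edgeR or by DESeq2, although 10.2%, 11.9% and 18.2% of all genes were. The count at an unadjusted p under 0.05 was 0, 0 and 1, the 1 being Mal in control cortex with 0.75 (SE 0.31, adjusted p 0.11). Mal had 56.0, 32.6 and 23.5 CPM after LPS there and 21.0, 16.4 and 29.1 CPM after saline, and without LPS replicate 3 the difference was 1.00 and was called (adjusted p 0.033). Mbp differed by -1.03 (SE 0.91) in MIA striatum, 0.94 (SE 0.80) in MIA cortex and 0.17 (SE 0.79) in control cortex. Mobp differed by -0.43 (SE 0.92), 1.40 (SE 0.83) and 0.76 (SE 0.83) in the same order. In MIA cortex the LPS libraries lay wholly above the saline libraries for 1 member, Mal, at 46.2, 48.9 and 50.3 CPM against 28.3, 38.1 and 40.9 CPM, as they did for 14.2% of all genes. All 9 members had a log2 fold change above 0 in control cortex and all 9 below 0 in control striatum. The members are correlated, so these signs are not 9 separate observations, and the signs of all genes are not given beside them. In control cortex Cnp (0.04, SE 0.26) and Mag (0.07, SE 0.3) lay close to 0.

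Averaged over the 4 pairs, 1 member fell with LPS, Cnp, with a change of -0.35 on the log2 scale (SE 0.14, adjusted p 0.047), where 37.6% of all genes were called and 16.9% as lower. Cnp had 169 and 106 CPM in MIA striatum LPS and 194, 127 and 231 CPM in MIA striatum saline, and 74.7, 80.0 and 123 CPM in MIA cortex LPS and 108, 135 and 148 CPM in MIA cortex saline, so that the groups overlapped. The Cnp call was lost under 19 of 29 alternatives, with adjusted p up to 0.22, 17 of them with 1 library left out. It was kept without control cortex LPS replicate 1, control cortex saline replicate 1, control striatum LPS replicate 3, MIA cortex LPS replicate 3, MIA striatum LPS replicate 1 or MIA striatum saline replicate 2. Mbp had an averaged difference of -0.71 (SE 0.41, adjusted p 0.2), and without MIA cortex LPS replicate 3 it was -1.27 and was called (adjusted p 0.0038), as was Olig1 at -0.71 (adjusted p 0.047). Olig1 was also called without MIA striatum LPS replicate 1, at -0.86 (adjusted p 0.036).

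Whether the LPS response differed between regions or between prenatal histories was tested as an interaction, and no member and no gene at all was called by edgeR in any of the 4 interactions (0% of 17139 genes). By DESeq2 0 members were called in each. In control mice 5 members had an unadjusted p under 0.05 for LPS by region, a count with no share of all genes to set it against. These were Mobp with -3.58 (SE 1.19, adjusted p 0.66), Mbp with -3.08 (SE 1.15, adjusted p 0.72), Olig1 with -2.05 (SE 0.82), Pdgfra with -1.75 (SE 0.77) and Mal with -1.46 (SE 0.44, adjusted p 0.61). For MIA by LPS in striatum there was 1, Mal with 1.19 (SE 0.46, adjusted p 0.63), and Mobp had 2.39 (SE 1.21, adjusted p 0.65). There were 0 for LPS by region in MIA mice and 0 for MIA by LPS in cortex.

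The third comparison set MIA against control offspring. No member was called by edgeR or DESeq2 in striatum LPS, striatum saline, cortex LPS or cortex saline, where 0.146%, 0%, 0% and 0% of all genes were called, or on average, where 0.35% were. Counts at an unadjusted p under 0.05 were 1 (Mal), 1 (Mobp), 0, 2 (Mal and Pdgfra) and, on average, 1 (Mal). On average Mal differed by 0.44 (SE 0.16, adjusted p 0.31). In striatum saline Mobp averaged 263 ± 231 CPM in MIA and 1008 ± 748 CPM in control libraries (SD, n = 3 each; log2 fold change -1.94, SE 0.84, adjusted p 0.92), and Mbp averaged 682 ± 587 and 2010 ± 1412 CPM (-1.56, SE 0.81). In cortex saline Mbp had 141, 152 and 233 CPM in MIA and 81.7, 103 and 125 CPM in control libraries, which did not overlap (0.76, SE 0.80, adjusted p 0.99). Olig1 likewise had 5.93, 6.98 and 10.2 CPM in MIA and 2.47, 4.46 and 4.02 CPM in control libraries (1.08, SE 0.59, adjusted p 0.95), while 7.04% of all genes had MIA libraries wholly above control libraries in this pair. In striatum LPS Mal had 117 and 65.3 CPM in the 2 MIA libraries and 58.9, 35.4 and 48.0 CPM in control libraries, which did not overlap either (0.94, SE 0.34, adjusted p 0.37). Of all genes 11.8% had MIA libraries wholly above control libraries in that pair.

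A list of 30 other genes of mature oligodendrocytes was followed beside the members, and all 30 were tested. Averaged over the 4 pairs, 9 were called as higher in striatum and 0 as lower, with a median of 1.31, where 1.72% of all genes were called as higher. Among the 9 were Plekhb1 (1.90), Bcas1 (1.86), Ermn (1.55), Tspan2 (1.31) and Ugt8a (1.49), which makes galactosylceramide. In control striatum LPS lowered 7 and raised 0, where 20.9% of all genes were called and 8.15% as lower. Among the 7 were Bcas1 (-3.27), Ugt8a (-2.39), Plekhb1 (-2.25), Car2, Gamt and Qdpr. Without control striatum saline replicates 1 and 2 together 1 of the 30 was called as lower there, and 2 as higher in striatum on average. Averaged over the pairs LPS lowered 8 of the 30 and raised 2, where 37.6% of all genes were called and 16.9% as lower. Among those lowered were Ugt8a at -1.76, Gamt at -0.98 and Olig2, a transcription factor of the lineage, at -1.58. Olig2 was near the floor, at 0 to 2.35 CPM over the 23 libraries. The 2 that rose were Apod (1.41), which encodes a lipid carrier, and Trf (0.31), the iron carrier transferrin. Trf averaged 3511 CPM and made up most of the summed level of this list, so that sum (3191 to 6425 CPM) does not follow the myelin genes. Of 11 other precursor genes 9 were tested, and 0 were called by edgeR in the 4 comparisons in which a member was called. At an unadjusted p under 0.05 there were 3 for LPS in control striatum, 3 for region in control saline, 0 for LPS on average and 4 for region on average, and DESeq2 called 1, 1, 0 and 0 of them. They summed to 8.2 to 60.2 CPM, led by Ptprz1 (mean 12.9 CPM) and Cspg4 (6.66 CPM). The peripheral myelin gene Prx lay between 0 and 0.799 CPM, and the 2 other genes of that list were not tested.

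Markers of other cells moved in some of the same libraries, and their part in the results was not tested. The 10 genes of striatal neurons, such as Ppp1r1b and Penk, summed to 24.1 to 26.0 CPM in control striatum LPS and 49.6 to 127 CPM in control striatum saline, and LPS lowered 2 of them there (Penk and Bcl11b). On average over pairs 9 of the 10 were higher in striatum, and of all genes tested 1.72% were called as higher there. Over the 23 libraries of both regions Mbp correlated with Ppp1r1b at r = 0.82. With the markers Slc1a2, Cldn5 and Snap25 its r was 0.58, 0.55 and 0.18. The 13 endothelial and pericyte genes summed to 741 to 1164 CPM in control striatum LPS and 1292 to 2718 CPM in control striatum saline, and 8 of them fell there, or 1 without control striatum saline replicates 1 and 2 together. The 7 fibroblast genes, which share Pdgfra as a marker, summed to 26.9 to 46.5 CPM and 52.3 to 93.9 CPM in the same groups, and 2 fell. The 13 neuronal genes summed to 74.4, 60.1 and 893 CPM in MIA cortex LPS, where the library at 893 CPM was the one with 863 CPM of Mbp. The 11 astrocyte genes summed to 296 to 1401 CPM over all libraries. None of the defining markers Snap25, Ppp1r1b, Slc1a2 or Cldn5 was at 0 in any library, while Drd2 was at 0 in 12 and Tac1 in 7 libraries. The 10 neutrophil genes summed to 614 to 892 CPM in control striatum LPS and 302 to 337 CPM in control striatum saline, and 7 of them rose. Of these, Csf3r was at 241 CPM or more in each library (mean 344 CPM) and so made up most of the saline sum. The 7 monocyte genes summed to 269 to 472 CPM and 117 to 145 CPM in the same groups, and 5 rose. The 10 microglial markers summed to 28938 to 39734 CPM after LPS there and 45712 to 52075 CPM after saline, and 6 of them fell. Beside these counts for LPS in control striatum, 20.9% of all genes were called and 8.15% as lower.

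Genes by which phagocytes take up and handle myelin lipid were followed as well, 22 in all, and each was tested. In control striatum, where Mbp and Mobp fell, LPS raised 11 and lowered 3, beside 20.9% of all genes called in either direction. The scavenger receptor gene Msr1 rose by a log2 fold change of 5.39, the secreted phosphoprotein Spp1 by 3.86 and the cholesterol hydroxylase Ch25h by 3.18. Trem2, a lipid receptor of microglia, fell by 0.79, the scavenger receptor Cd36 by 1.57 and the lysosomal protease Ctsd by 0.62. The 22 genes summed to 15626 to 17968 CPM in control striatum LPS and 18961 to 22352 CPM in control striatum saline. Ctsd, with a mean of 12382 CPM over the 23 libraries, made up most of that sum. Control cortex, where no member was called, had 8 raised and 4 lowered, beside 18.2% of all genes called. Averaged over the pairs 12 rose and 5 fell, beside 37.6% of all genes called. Between regions, averaged, Lpl (1.13, higher in striatum) and Cd36 (-0.89, lower in striatum) of the 22 were called, beside 2.45% of all genes called.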

How the data were processed

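Bulk RNA of CD11b-sorted mouse cells was analysed in 23 of 24 libraries. The authors deposited expected counts per gene and library; per the submitters' processing notes STAR, RSEM and DESeq2 were used, with versions and genome build not given in the sources used here. Of all values 6.922% were not whole, and they were rounded. Identifiers matched a symbol for 55141 of 55487 genes. Computed here, in R 4.3.3: genes kept by filterByExpr (minimum count 10, minimum total 15), TMM scaling, CPM, and 1 edgeR 4.0.16 quasi-likelihood fit with a term per group (15 residual degrees of freedom), from which 19 comparisons were taken, two-sided, adjusted by Benjamini and Hochberg over 17139 genes. Correlations used log2 CPM with a prior count of 2. The test was checked on simulated data. The text names the 9 members, and by rule the 3 genes most like each and, from marker lists, the most abundant and those called where a member was, with some of these not reported here. Alternatives were DESeq2 size factors, the DESeq2 1.42.0 Wald test, no filter, a replicate block, the excluded library added back, each library left out, and, chosen after seeing the data, 2 control striatum saline libraries left out together. Members and lists were chosen with earlier results of these data known. RSEM shares reads among similar genes.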

Additional observations from a re-analysis of the deposited data

Results flagged for a closer look

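MIA striatum LPS replicate 3, which its title marks as excluded and which no comparison used, held several of the myelin genes above the highest of the 6 control saline libraries. Mbp stood at 4004 CPM in it, against at most 3227 CPM in those libraries, and Cnp at 272 CPM, against at most 187 CPM. Mal stood at 124 CPM (at most 93.8 CPM in control saline), Mag at 89.7 CPM (74.4 CPM), Cldn11 at 39.0 CPM (27.6 CPM), Mog at 26.5 CPM (19.6 CPM) and Olig1 at 26.0 CPM (16.0 CPM). Mobp at 1415 CPM and the precursor gene Pdgfra at 1.21 CPM were not above them (1659 and 9.67 CPM). Against all 23 libraries of the fit Cldn11 was not the highest either, as MIA striatum LPS replicate 1 had 49.2 CPM. Mbp, Cnp, Mal, Mag, Mog and Olig1 were above all 23. The ratio of Mbp to Mag in the library set aside was 44.7. In the same library the neuronal genes summed to 545 CPM, the striatal neuron genes to 233 CPM and the astrocyte genes to 2297 CPM, against at most 893, 127 and 1401 CPM over the other 23 libraries. The microglial markers summed there to 23975 CPM, against at least 28938 CPM. The part of these cells in the myelin gene values was not tested. Groups of 2 or 3 libraries were not tested for single outliers.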

How the results depend on the processing

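Of the 171 member values (9 genes in 19 comparisons), 10 were called, and of their 290 values under alternatives 224 were still called. No called value changed its sign. Over all 4959 alternative values 66 lost and 28 gained a call. For LPS in control striatum the count of members called, 2, was 4 with the replicate block (Cnp, Mobp, Mbp and Olig1), 1 with the excluded library added back (Mobp, with Mbp at an adjusted p of 0.053), 0 without control striatum saline replicates 1 and 2 together, and 0 to 3 with single libraries left out. For striatum minus cortex in control saline the count, 3, was 5 with no filter on low counts (Olig1 and Mog added), 5 by the DESeq2 Wald test (Olig1 and Pdgfra added), 1 with the excluded library added back, 0 without both libraries and 0 to 3 with single libraries left out. For LPS averaged over 4 pairs the count, 1, was 0 with the excluded library added back, 0 without both libraries and 0 to 3 with single libraries left out. For striatum minus cortex averaged over 4 pairs the count, 4, was 8 with no filter, 1 without both libraries (Mal) and 2 to 6 with single libraries left out. For LPS in control cortex the count, 0, was 0 to 1 with single libraries left out. The other 14 counts stayed at 0 under all 29 alternatives. Leaving out an MIA striatum LPS library, or control striatum saline replicates 1 and 2 together, leaves 1 in that group, which is then assumed to vary like the others. Those 2 replicates were chosen after seeing that they held the highest Mbp and Mobp values. The cause of these changes was not tested, apart from the fewer libraries.

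Same-numbered libraries of different groups tended to deviate together, though not throughout. Over 77 such pairs the correlation of deviations from the group means averaged 0.076 (from -0.2 to 0.315), and 35 were over 0.1. Over 154 differently numbered pairs it averaged -0.038, and 22 were over 0.1. Of 23 libraries 19 correlated best with a library of their own number. The labels do not say what a number marks, so the replicate block is an alternative only; beyond the count above it added calls for Cnp and Olig1 in striatum minus cortex averaged over pairs.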
